A study of Mus musculus with 77 samples.

Results

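Mup20, Mup12, Mup8 and Mup6 are 4 of the 45 genes with a symbol starting with Mup among the 25266 genes of the count tables, and their RNA and ribosome footprints were followed liver by liver in mice without iron regulatory protein 1 (IRP1, encoded by Aco1) or 2 (IRP2, encoded by Ireb2). The 4 genes were picked by name with their levels in these livers already known, so each comparison of them is a description and carries no test. The sum of all Mup symbols was read beside them, because the copies are near-identical and can share reads. The sum is part of the rule that chose the genes, so it carries no test either, and neither does the sum of the copies outside the 4, which hold most of its counts. Mup3 and Mup7, which hold most of these, are described with the single copies but are left out where copies past a threshold are counted among the results. Tests are given for the smaller single copies outside the 4 and for genes outside the family, and reads of such a copy can belong to one of the 4.

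Major urinary proteins are small lipocalins that hepatocytes secrete into the blood and that the kidney passes into the urine, where they carry and slowly release volatile pheromones. Mup20, also called darcin, is itself a pheromone that makes male scent attractive to females. The genes form a cluster of recent duplicates, and in male liver most of them are driven by the pulsatile growth hormone pattern acting through STAT5, with androgens and glucocorticoids as further inputs.

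Livers of 24 adult male mice on a C57BL/6J background were profiled, 3 in each of 8 groups. The groups were Aco1+/+ and Aco1-/- (allele Aco1tm1.1Mwh), and Ireb2+/+ and Ireb2-/- (allele Ireb2tm1.2Mwh), each taken at ZT5 and at ZT12, where ZT counts the hours from the onset of light. Each line had its own controls, and every liver gave 1 library of total RNA and 1 library of ribosome-protected fragments (RPF), made from the same liver. Values are reads in the coding sequence (CDS), given as normalised CPM, the counts scaled for library size, after upper-quartile scaling of the 48 libraries, and RPF/RNA of a liver is called translation efficiency (TE).

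RNA libraries held between 852293 and 3993492 CDS counts and RPF libraries between 2448915 and 13439600. RPF on the Aco1 CDS fell from 410 ± 70.2 CPM in Aco1+/+ to 79.8 ± 4.46 in Aco1-/- at ZT5 (SD, n = 3), and on the Ireb2 CDS from 74.7 ± 6.98 in Ireb2+/+ to 37.2 ± 3.497 in Ireb2-/-. Hepatocyte markers stood high in every RNA library, with Alb between 70951 and 128119 CPM. The lymphocyte marker Cd79a was at most 1.51 CPM. Ptprc and Ighm are listed at 0 in every library, Ptprc although Kupffer cells, which carry it too, left 99.8–179 CPM of their marker Clec4f, so these 2 rows say nothing about lymphocytes. The 3 RPF libraries of Aco1-/- at ZT12 stood apart from the other 21 in where footprints lay on Mup20, and Mup20 differences that rest on them are given again with the counts of the 5′ untranslated region (5′ UTR) added.

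Of the 45 Mup symbols, 23 are named pseudogenes and had no CDS count in any library. The other 22 had CDS counts, and 16 of them, the 4 members included, were among the 10696 genes that passed the filter on low counts. Mup3 alone held 64.8% of the family's RNA counts and 62.1% of its RPF counts. Mup20 held 17.1% and 12.0%, Mup7 9.70% and 16.5%, and the 4 members together 17.7% and 13.8%. The family as a whole took between 0.336% and 0.951% of the CDS counts of an RNA library.

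All 4 members lie on chromosome 4 of the mouse assembly GRCm38.p6. Mup6 (ENSMUSG00000078689) spans chr4:60003481-60007274, Mup8 (ENSMUSG00000078687) chr4:60218620-60222565, Mup12 (ENSMUSG00000094793) chr4:60737381-60741416 and Mup20 (ENSMUSG00000078672) chr4:62011337-62054143. Mup20 is annotated over 42807 bases, against a median of 4009.5 bases for the 22 coding copies. The bases around the motif TATATAA are printed to show how little separates the copies there, for Mup6, the only member among the RefSeq promoters used here, and for 4 other copies. Capitals mark the motif, which was searched on both strands.
Mup6: acccagagagTATATAAagacaagcaaa
Mup4: acccagagcaTATATAAagacaagcaaa
Mup9: acccagagagTATATAAggacaagcaaa
Mup10: actcagagatTATATAAggacaagcaaa
Mup3: aaccagagagTATATAAggacaagcaaa
The windows, 5′ to 3′ on the strand of the gene, are chr4:60003442-60003469 on the plus strand for Mup6, and on the minus strand chr4:59960679-59960706 for Mup4, chr4:60421966-60421993 for Mup9, chr4:60582168-60582195 for Mup10 and chr4:62087311-62087338 for Mup3. Over these 28 bases Mup4 and Mup3 differed from Mup6 at 2 bases, Mup10 at 3 and Mup9 at 1. Mup2, Mup11, Mup14, Mup15, Mup17, Mup18 and Mup19 carried the Mup9 sequence, and Mup21 carried that of Mup3. The motif began 29 bases before the start on which the RefSeq promoter is set for Mup6 and Mup4, 31 for Mup9, 30 for Mup10 and 11 for Mup3. The distance differed among the other copies, with 8 bases for Mup21, 2 for Mup11 and a place past the start for Mup14. This start is not always the outer end of the gene, since Mup9 and Mup10, on the minus strand, are annotated up to 60422085 and 60582276. The motif was found in 13 of the 14 Mup promoters and in 3.24% of all 300-base promoters of the table.

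Summed over all copies, Mup RNA was highest in the Aco1+/+ livers and lowest in the Ireb2-/- livers at ZT12. At ZT5 it was 7479, 7798 and 7312 CPM in the 3 Aco1+/+ livers and 4915, 6118 and 6110 in the 3 Aco1-/- livers. At ZT12 the Aco1+/+ livers held 7014, 7499 and 8605 CPM and the Aco1-/- livers 7262, 5591 and 3286. The knockout livers therefore lay below all controls at ZT5, whereas at ZT12 the first Aco1-/- liver lay among the controls and the third far below.

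Mup RNA of the Ireb2 line was 5156, 5049 and 4676 CPM in Ireb2+/+ livers and 3724, 4004 and 4348 in Ireb2-/- livers at ZT5. At ZT12 it was 5286, 6281 and 3861 CPM in Ireb2+/+ livers and 3439, 3620 and 3028 in Ireb2-/- livers. No knockout liver reached the lowest control at either time. The fitted log2 differences of the RNA sum, knockout against control, were −0.40 ± 0.19 and −0.52 ± 0.19 (SE) in the Aco1 line at ZT5 and ZT12, and −0.30 ± 0.14 and −0.61 ± 0.14 in the Ireb2 line. Single livers moved the Aco1 value at ZT12, which was −0.80 without the first Aco1-/- liver and −0.26 without the third. With 5′ UTR counts added to the CDS the RNA difference was −0.78 in the Aco1 line at ZT12 and −0.11 in the Ireb2 line at ZT5.

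Footprints on the summed family were lower in Ireb2-/- livers as well. At ZT5 they were 9131, 9642 and 7890 CPM in Ireb2+/+ and 5899, 6331 and 6385 in Ireb2-/- livers, and at ZT12 8822, 8704 and 7514 in Ireb2+/+ and 5361, 5954 and 4658 in Ireb2-/- livers. The 2 genotypes did not overlap at either time, and the log2 differences were −0.52 ± 0.11 and −0.65 ± 0.11. In the Aco1 line footprints were 12291, 11590 and 9770 CPM in Aco1+/+ and 7359, 9732 and 8046 in Aco1-/- livers at ZT5, and 8244, 7948 and 9981 against 9383, 8250 and 5665 at ZT12. The Aco1 groups were separate at ZT5, with a log2 difference of −0.42 ± 0.17, and overlapped at ZT12, with −0.17 ± 0.17. The latter was 0.015 without the third Aco1-/- liver, −0.33 without the first, −0.06 without the third Aco1+/+ liver and −0.43 with 5′ UTR counts added. In the Ireb2 line at ZT5 the RPF difference was −0.29 with 5′ UTR counts added.

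**Figure D1:**
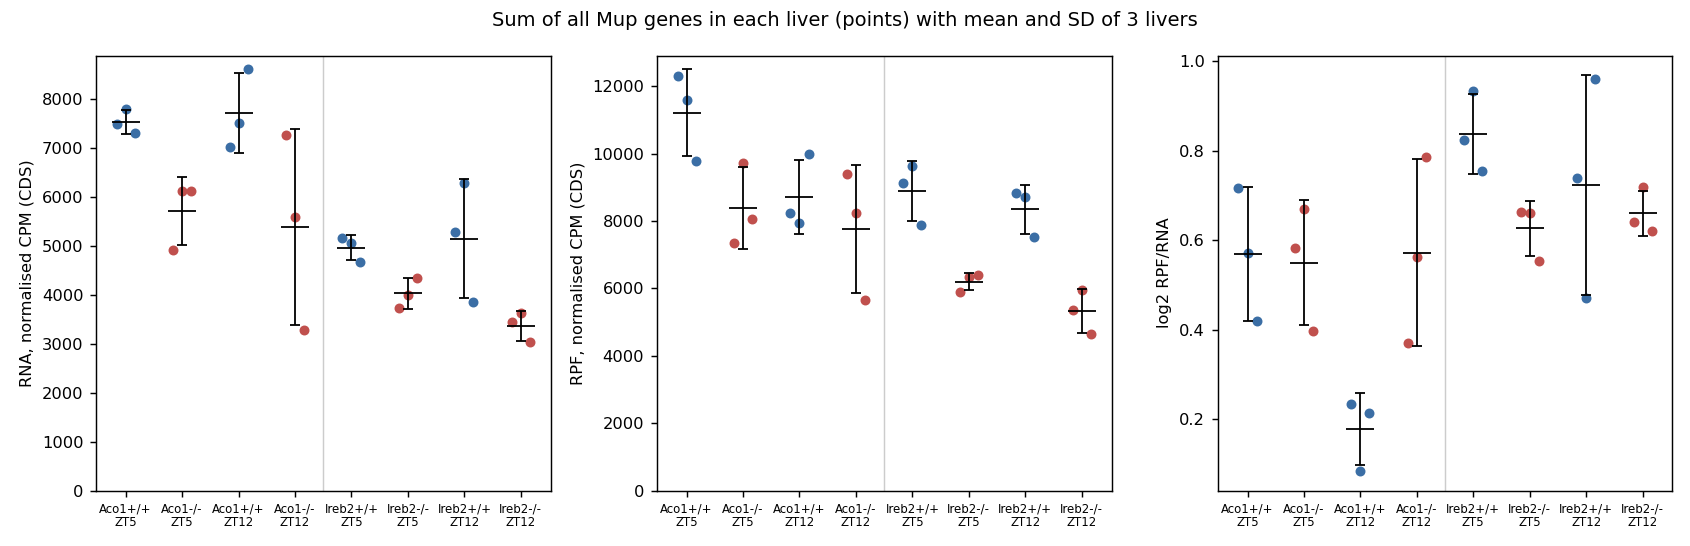
RNA (left) and RPF (middle) CDS counts of all Mup genes summed, in normalised CPM, and log2 RPF/RNA (right), for each of the 24 livers by genotype and time. Points are livers (blue +/+, red -/-), and bars give the mean and SD of 3 livers. Mean RNA ranged from 3362 CPM in Ireb2-/- at ZT12 to 7706 in Aco1+/+ at ZT12.

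The 2 control lines did not start from the same level. Mean Mup RNA was 7530 ± 247 CPM in Aco1+/+ and 4960 ± 252 in Ireb2+/+ livers at ZT5, and 7706 ± 815 against 5142 ± 1216 at ZT12. Ordered by mean RNA, both Aco1+/+ groups came first, then Aco1-/-, Ireb2+/+ and Ireb2-/-, and 4 of the 7 neighbouring pairs of groups overlapped. In RPF 6 of 7 neighbouring pairs overlapped, and the 2 Ireb2-/- groups came last. The log2 RPF/RNA of the sum lay between 0.550 and 0.837 in 7 groups and at 0.177 ± 0.0812 in Aco1+/+ at ZT12, where all 3 livers lay below all others. This depended on the columns counted. The log2 difference between times in Aco1+/+ was −0.39 in CDS counts, −0.12 with 5′ UTR counts added and −0.020 with all count columns, and the genotype difference at ZT12 was 0.40 in CDS counts and −0.029 with all count columns. In bulk liver, fewer hepatocytes and less Mup RNA per hepatocyte cannot be told apart.

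Without the 4 members, the other copies gave nearly the same picture, since they hold all but 17.7% of the family's RNA counts and 13.8% of its RPF counts. In RPF they were at 7866, 7793 and 6632 CPM in Ireb2+/+ livers at ZT12 and at 4663, 4760 and 4082 in Ireb2-/- livers, without overlap. This is a 1.65-fold lower level in the knockout (log2 difference −0.72 ± 0.10). At ZT5 the RPF of the other copies was 7904, 8378 and 6997 CPM in Ireb2+/+ and 5221, 5465 and 5540 in Ireb2-/- livers, again without overlap (log2 −0.52 ± 0.10).

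In RNA the other copies gave log2 differences of −0.29 ± 0.14 at ZT5 and −0.70 ± 0.14 at ZT12 in the Ireb2 line, the former −0.12 with 5′ UTR counts added. In the Aco1 line the RNA differences were −0.40 ± 0.19 and −0.49 ± 0.19 and the RPF differences −0.42 ± 0.17 and −0.23 ± 0.17 at ZT5 and ZT12. At ZT12 these rested on single livers. Without the first Aco1-/- liver they were −0.77 in RNA and −0.39 in RPF, without the third −0.23 and −0.07, and the RPF value was −0.14 without the third Aco1+/+ liver. In TE the difference between genotypes farthest from 0 was 0.31 ± 0.12, in the Aco1 line at ZT12, and it was 0.17 without the third Aco1-/- liver and 0.062 with all count columns.

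Set against each other, the knockout differences of the other copies at ZT12 and ZT5 lay −0.41 ± 0.19 apart in RNA of the Ireb2 line, −0.23 without the second Ireb2+/+ liver at ZT12 and −0.73 with all count columns. The Aco1 and the Ireb2 line lay 0.49 ± 0.20 apart in RPF at ZT12. From ZT5 to ZT12 the RPF of the other copies differed by −0.26 ± 0.10 in Ireb2-/- livers.

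The summed RNA level of the 6 hepatocyte markers was not lower in Ireb2-/- livers, which at ZT12 held 141800–162714 CPM beside 125188–135072 in Ireb2+/+, and at ZT5 133841–152553 beside 98844–134514. At ZT12 the 5 Kupffer cell markers summed to 304–345 and 253–420 CPM, the 5 endothelial markers to 389.8–437 and 379–402, the 5 stellate cell markers to 443–502 and 406–454, the 4 bile duct markers to at most 10.3 and 7.48, and the 4 globins to 20.0–28.6 and 14.1–20.97. Globins differed in the Aco1 line at ZT5, where they were at 36.1–72.0 CPM in Aco1+/+ and at 7.30–20.9 in Aco1-/- livers, without overlap. At ZT12 they were at 26.7–64.4 and 1.91–103 CPM, and in the Ireb2 line at ZT5 at 15.3–36.7 in controls and 11.8–22.7 in knockouts, with overlap in both. The part of these differences in the Mup values was not tested.

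Gene by gene, the 12 tested copies outside the 4 members pointed down in the Ireb2 line. All 12 had a fitted log2 difference below 0 in RNA and in RPF at both times. Their medians were −0.58 at ZT5 and −1.73 at ZT12 in RNA, and −1.03 and −1.83 in RPF. The medians over all genes tested were 0.01, 0.003, 0.03 and 0.02, in the same order. In RNA the knockout livers lay below the controls without overlap for 5 of the 12 at either time, against 4.97% and 4.35% of all genes. In RPF they did so for 8 of the 12 at ZT5 and 7 at ZT12, against 6.0% and 4.55% of all genes. Because the copies share reads, the 12 are not independent of each other or of the 4. The 12 include Mup9, with 9 RPF CDS counts over the 24 libraries, so its RPF value is near the floor in every count of the 12. Its differences were the lowest of the family at ZT12, −3.43 in RNA and −3.19 in RPF. Mup10, also among the 12, had 71 RNA CDS counts. The 4 members lay below 0 as well, apart from Mup20 in RPF at ZT12.

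In the Aco1 line 8 and 7 of the 12 copies lay below 0 in RNA at ZT5 and ZT12, and 11 and 8 in RPF. There the knockouts lay below without overlap for 6 and 2 of 12 in RNA (4.38% and 5.7% of all genes) and for 6 and 3 in RPF (3.78% and 10.5%). In RNA at ZT5 they lay above without overlap for 1 of 12, Mup13, and for 5.01% of all genes.

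**Figure D2:**
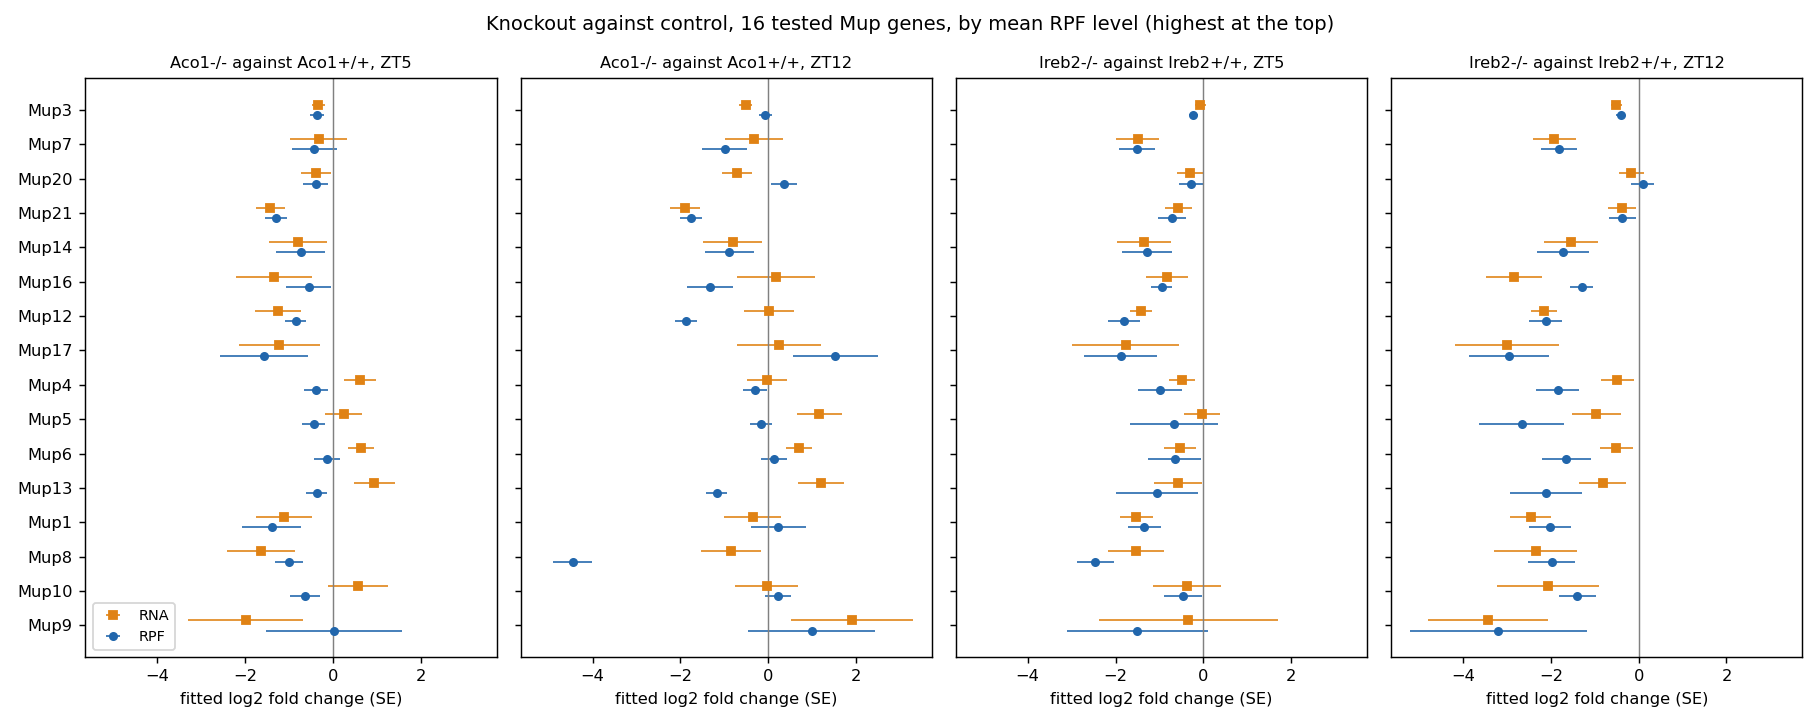
Fitted log2 fold change of knockout against control for the 16 tested Mup genes (rows, by mean RPF level) in the 2 lines and 2 times (panels), RNA as squares and RPF as circles, with standard errors. In the Ireb2 line the medians of the 12 copies outside the members were −0.58 and −1.73 in RNA and −1.03 and −1.83 in RPF, while Mup3, the copy with the most counts, lay between −0.50 and −0.08.

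The copy with the most counts lay closer to 0 than these medians. At ZT5 Mup3 RPF stood at 5127 ± 539 CPM in the Ireb2+/+ group and 4373 ± 227 in the Ireb2-/- group, and at ZT12 at 4946 ± 522 and 3727 ± 163, with log2 differences of −0.23 ± 0.10 and −0.41 ± 0.10. For Mup7, which differed by more with wider errors, RPF at ZT5 was 1905 ± 144.4 CPM in controls and 669 ± 178 in knockouts of this line, and at ZT12 1692 ± 653 and 481 ± 229 (log2 −1.51 ± 0.40 and −1.82 ± 0.41). For both genes the knockout livers lay below the controls at ZT12 without overlap.

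Without Mup3 and Mup7, 10 of the 12 copies were left for tests, and few passed the threshold of adjusted p 0.05. For knockout against control they were 2 in RPF of the Aco1 line at ZT12, Mup21 and Mup13, both lower, where 0.299% of all 10696 genes were called. In the other 11 comparisons of genotypes edgeR called 0 of them, with between 0 and 8 at an unadjusted p under 0.05. The highest of these, 8 of 10, was in RPF of the Ireb2 line at ZT12, against 7.62% of all genes, and there DESeq2 called 3, Mup1, Mup16 and Mup17, and 0.187% of all genes. In the other comparisons of genotypes in RNA and RPF it called between 0 and 2 of the 10, and between 0.00935% and 1.14% of all genes. Mup21 had RPF of 239 ± 12.2 CPM in Aco1+/+ and 70.7 ± 10.1 in Aco1-/- livers at ZT12 (log2 −1.76 ± 0.26, edgeR adjusted p = 0.0089). Mup13 had 55.9 ± 10.1 against 24.6 ± 9.01 CPM (log2 −1.17 ± 0.24, edgeR adjusted p = 0.0499). These 2 calls became 0 without the second Aco1-/- liver and 1 without the third or without any 1 Aco1+/+ liver. They were also 1 with TMM scaling, with a minimum count of 30, in the fit to the 6 mice compared and with the replicate number as a block.

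RNA of Mup20, the darcin gene, overlapped between genotypes in 3 of the 4 comparisons. Its RNA was 1361, 1421 and 1505 CPM in Aco1+/+ and 648, 1345 and 1292 in Aco1-/- livers at ZT5, and 1303, 975 and 1666 against 1052, 865 and 503.7 at ZT12. For the Ireb2 line the values were 744, 684 and 883 against 496, 586 and 789 CPM at ZT5, and 837, 913 and 593 against 545, 1020 and 522 at ZT12. The exception was the Aco1 line at ZT5, where the highest knockout liver lay just below the lowest control. The log2 differences ran from −0.71 ± 0.34 (Aco1, ZT12) to −0.17 ± 0.29 (Ireb2, ZT12). The first of these was −1.18 with 5′ UTR counts added and −0.46 without the third Aco1-/- liver, and the last −0.55 without the second Ireb2-/- liver. In the Ireb2 line at ZT5 the difference lay between −0.31 and 0.079 over 5 alternatives of scaling, runs and count columns.

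Mup20 footprints on the CDS were 1717, 1606 and 1329 CPM in Aco1+/+ and 956, 1475 and 1112 in Aco1-/- livers at ZT5, and 948, 652 and 1167 against 1388, 1505 and 651 at ZT12. In Ireb2+/+ they were 1032, 968 and 680 CPM at ZT5 and 765, 726 and 683 at ZT12, and in Ireb2-/- 621, 809 and 765, and 613, 1152 and 548. The genotypes overlapped in all 4 comparisons of CDS counts, and the log2 differences lay between −0.39 ± 0.29 (Aco1, ZT5) and 0.36 ± 0.29 (Aco1, ZT12), the latter between 0.14 and 0.65 without 1 liver. With 5′ UTR and CDS counts added up, Mup20 RPF at ZT12 was 2643, 2149 and 4125 CPM in Aco1+/+ and 1710, 1824 and 931 in Aco1-/- livers, so that the knockouts lay below the controls, and the difference turned from 0.36 to −0.98. In the Ireb2 line at ZT5 it turned from −0.29 to 0.29, and in the Aco1 line at ZT5 it went from −0.39 to −0.18. In CDS counts all 7 neighbouring pairs of groups overlapped in the order of mean RNA, and all 7 in that of RPF, so neighbouring groups could not be ordered. Groups farther apart could be separate. The Aco1+/+ livers at ZT5, with 1361–1505 CPM in RNA and 1329–1717 in RPF, lay above every liver of the Ireb2 line in both.

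Among the comparisons of genotypes, RPF/RNA set 1 of Mup20 apart. Its log2 RPF/RNA was −0.458, −0.580 and −0.513 in Aco1+/+ livers and 0.400, 0.799 and 0.369 in Aco1-/- livers at ZT12. In these CDS counts the 3 controls lay below the livers of every other group, which reached down to −0.376. Aco1+/+ livers at ZT5, at −0.180 to 0.335, were among those above them. The knockout livers overlapped other groups. The 3 knockout livers lay above the 3 controls, with a fitted difference of 1.04 ± 0.16. With 5′ UTR counts added it was 0.25, and with all count columns −0.42. At ZT5 the difference was 0.04 ± 0.16, and in the Ireb2 line 0.04 ± 0.25 and 0.23 ± 0.26, with overlapping livers.

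The 5′ UTR column of Mup20 held 268062 RPF counts over the 24 livers against 142334 in the CDS, or 65.3% of both together, and 72.5% of the RNA counts. Copies with far fewer counts had higher shares, in both kinds of library for Mup10 (87.0% in RPF and 93.1% in RNA) and Mup11 (87.5% and 93.0%). In RPF alone the share was higher for Mup9 (99.8%). In RNA alone it was higher for Mup18 (82.0%), Mup8 (74.5%) and Mup12 (73.4%). In 21 RPF libraries the 5′ UTR share of Mup20 was between 52.4% and 78.7%, with a median of 68.5%. In the 3 Aco1-/- libraries at ZT12 it was 18.8%, 17.5% and 30.1%. Both sequencing runs of these libraries gave alike shares, 19.6% and 18.7%, 18.2% and 17.3%, and 31.3% and 29.7%. In the RNA libraries of the same 3 livers it was 45.0%, 64.2% and 38.4%, against 59.1–79.7% in the other 21, so 1 of the 3 overlapped the others.

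**Figure D3:**
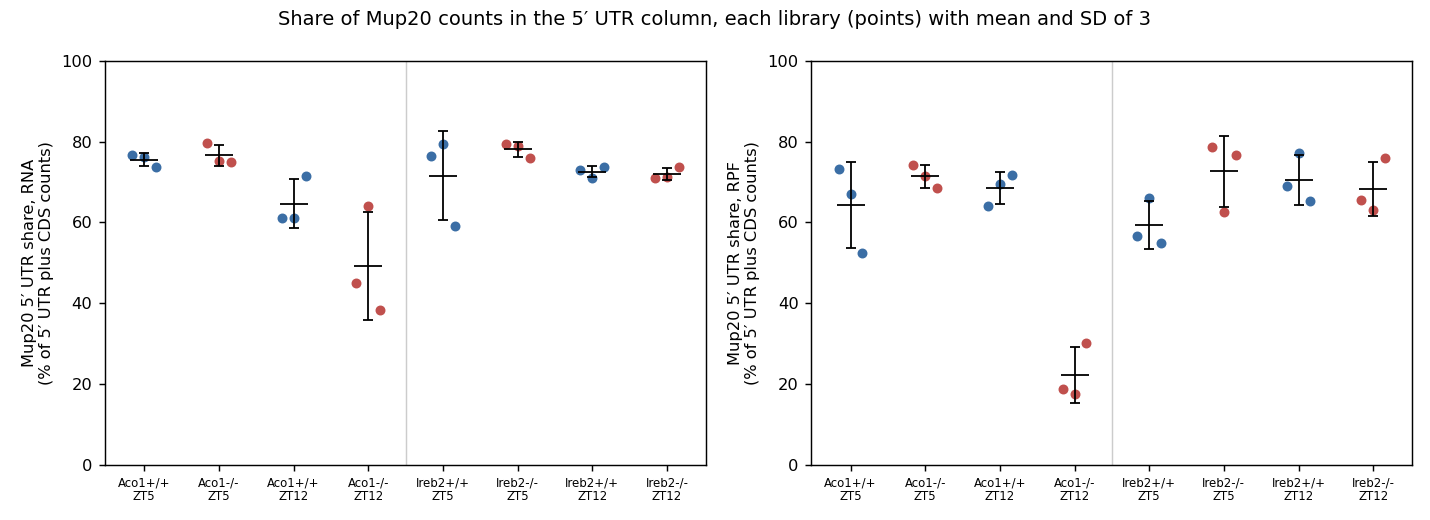
Share of Mup20 counts that fell in the 5′ UTR column, in percent of 5′ UTR plus CDS counts, in RNA (left) and RPF (right) libraries by group (blue +/+, red -/-), with the mean and SD of 3 libraries. The 3 Aco1-/- RPF libraries at ZT12 lie between 17.5% and 30.1%, below the other 21.

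The shift was not particular to Mup20. Of 1654 genes with enough counts, 104 (6.29%) had an RPF 5′ UTR share in these 3 libraries below that in the other 21, and 8 (0.484%) above. In RNA 6 of 1465 (0.41%) lay below. Mup21 was another Mup gene among them, with 2.37–5.59% against 6.12–19.5%, whereas Mup3, with 2.85–4.17% against 2.53–12.4%, and Mup12 overlapped.

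Mup12 RPF was lower in the knockout livers of both lines. Its RPF was 114, 122.5 and 116 CPM in Aco1+/+ and 61.4, 67.6 and 67.3 in Aco1-/- livers at ZT5, and 73.2, 72.0 and 89.6 against 34.2, 16.1 and 12.6 at ZT12. The Ireb2 line gave 126, 182 and 127 against 34.0, 37.2 and 53.3 CPM at ZT5, and 107.6, 122.1 and 70.1 against 36.6, 17.3 and 15.4 at ZT12. Knockout and control livers were separate in all 4 comparisons. The log2 differences were −0.85 ± 0.25 and −1.88 ± 0.26 in the Aco1 line and −1.81 ± 0.36 and −2.12 ± 0.38 in the Ireb2 line, so the mean RPF ranged from 145.2 CPM in Ireb2+/+ at ZT5 to 20.995 in Aco1-/- at ZT12.

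Mup12 RNA followed the same pattern in 3 of the 4 comparisons, on far fewer counts, as few as 5 in 1 library. It was 26.4, 26.9 and 37.4 CPM in Aco1+/+ and 8.82, 11.3 and 16.6 in Aco1-/- livers at ZT5. In the Ireb2 line it was 28.2, 40.5 and 33.5 against 9.41, 11.8 and 15.9 CPM at ZT5 and 31.6, 33.4 and 21.3 against 8.31, 2.72 and 8.52 at ZT12. In these the knockout livers lay below the controls, with log2 differences of −1.26 ± 0.52, −1.42 ± 0.25 and −2.16 ± 0.30.

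In the Aco1 line at ZT12 the genotypes overlapped in Mup12 RNA. It was 13.7, 15.2 and 20.1 CPM in Aco1+/+ and 43.7, 12.98 and 7.08 in Aco1-/- livers, the first of which came from the RNA library with the fewest CDS counts (43 Mup12 counts of 852293). The log2 difference was 0.02 ± 0.56, −0.71 without the first Aco1-/- liver, 0.52 without the third and −0.49 with 5′ UTR counts added. With RPF lower, log2 RPF/RNA was 2.40, 2.24 and 2.14 in Aco1+/+ and −0.368, 0.304 and 0.820 in Aco1-/- livers, a difference of −2.05 ± 0.26 without overlap. In the other 7 groups mean log2 RPF/RNA of Mup12 lay between 1.74 and 2.45.

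The 5′ UTR column held 73.4% of Mup12 RNA counts and 24.3% of its RPF counts over the 24 livers. In RPF the share was 7.89–23.1% in Aco1-/- livers at ZT12 and 9.77–54.5% in the other 21, with overlap. With 5′ UTR and CDS counts added up, Mup12 RPF was 84.9, 90.8 and 130.98 CPM in Aco1+/+ against 42.4, 20.98 and 13.7 in Aco1-/- livers at ZT12, so the separation remained.

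Mup8 had very little RNA, between 0 and 12 CDS counts per library, and its footprints carried the pattern. Its RPF was 26.0, 24.7 and 47.3 CPM in Aco1+/+ and 13.3, 16.8 and 18.1 in Aco1-/- livers at ZT5. At ZT12 it was 32.8, 17.4 and 13.3 CPM in Aco1+/+ and 1.04, 1.04 and 0.723 in Aco1-/- livers, the latter from 8, 6 and 4 counts. Knockouts lay below controls at both times, with log2 differences of −0.99 ± 0.32 and −4.45 ± 0.44, the latter −3.77 with the first sequencing run alone.

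In the Ireb2 line Mup8 RPF was 52.9, 96.8 and 71.5 CPM in Ireb2+/+ and 11.8, 11.8 and 16.9 in Ireb2-/- livers at ZT5, and 12.5, 30.5 and 12.9 against 4.69, 7.42 and 2.19 at ZT12. Here too no knockout liver overlapped the controls (log2 −2.46 ± 0.42 and −1.98 ± 0.54). From ZT5 to ZT12 the log2 difference of Mup8 RPF was −2.03 ± 0.41 in Ireb2+/+, −1.56 ± 0.55 in Ireb2-/- and −4.03 ± 0.46 in Aco1-/- livers, where it was −3.38 with the first sequencing run alone. In Aco1+/+ livers, which overlapped between the times, it lay between −1.04 and −0.26 without 1 liver. RNA differences of −1.64 ± 0.77 and −0.85 ± 0.69 in the Aco1 line and −1.53 ± 0.63 and −2.34 ± 0.94 in the Ireb2 line had wide errors, and 3 RNA libraries had no Mup8 count. The Aco1 value at ZT12 was −0.033 without the third Aco1-/- liver and −2.23 without the second, and the value at ZT5 was −2.53 with the first sequencing run alone and −1.01 with 5′ UTR counts added. The Ireb2 value at ZT12 lay between −2.35 and −1.64 over alternatives of scaling, runs and count columns, and between −2.83 and −1.85 without 1 liver. At so few counts RPF/RNA of Mup8 could not be given with useful precision.

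**Figure D4:**
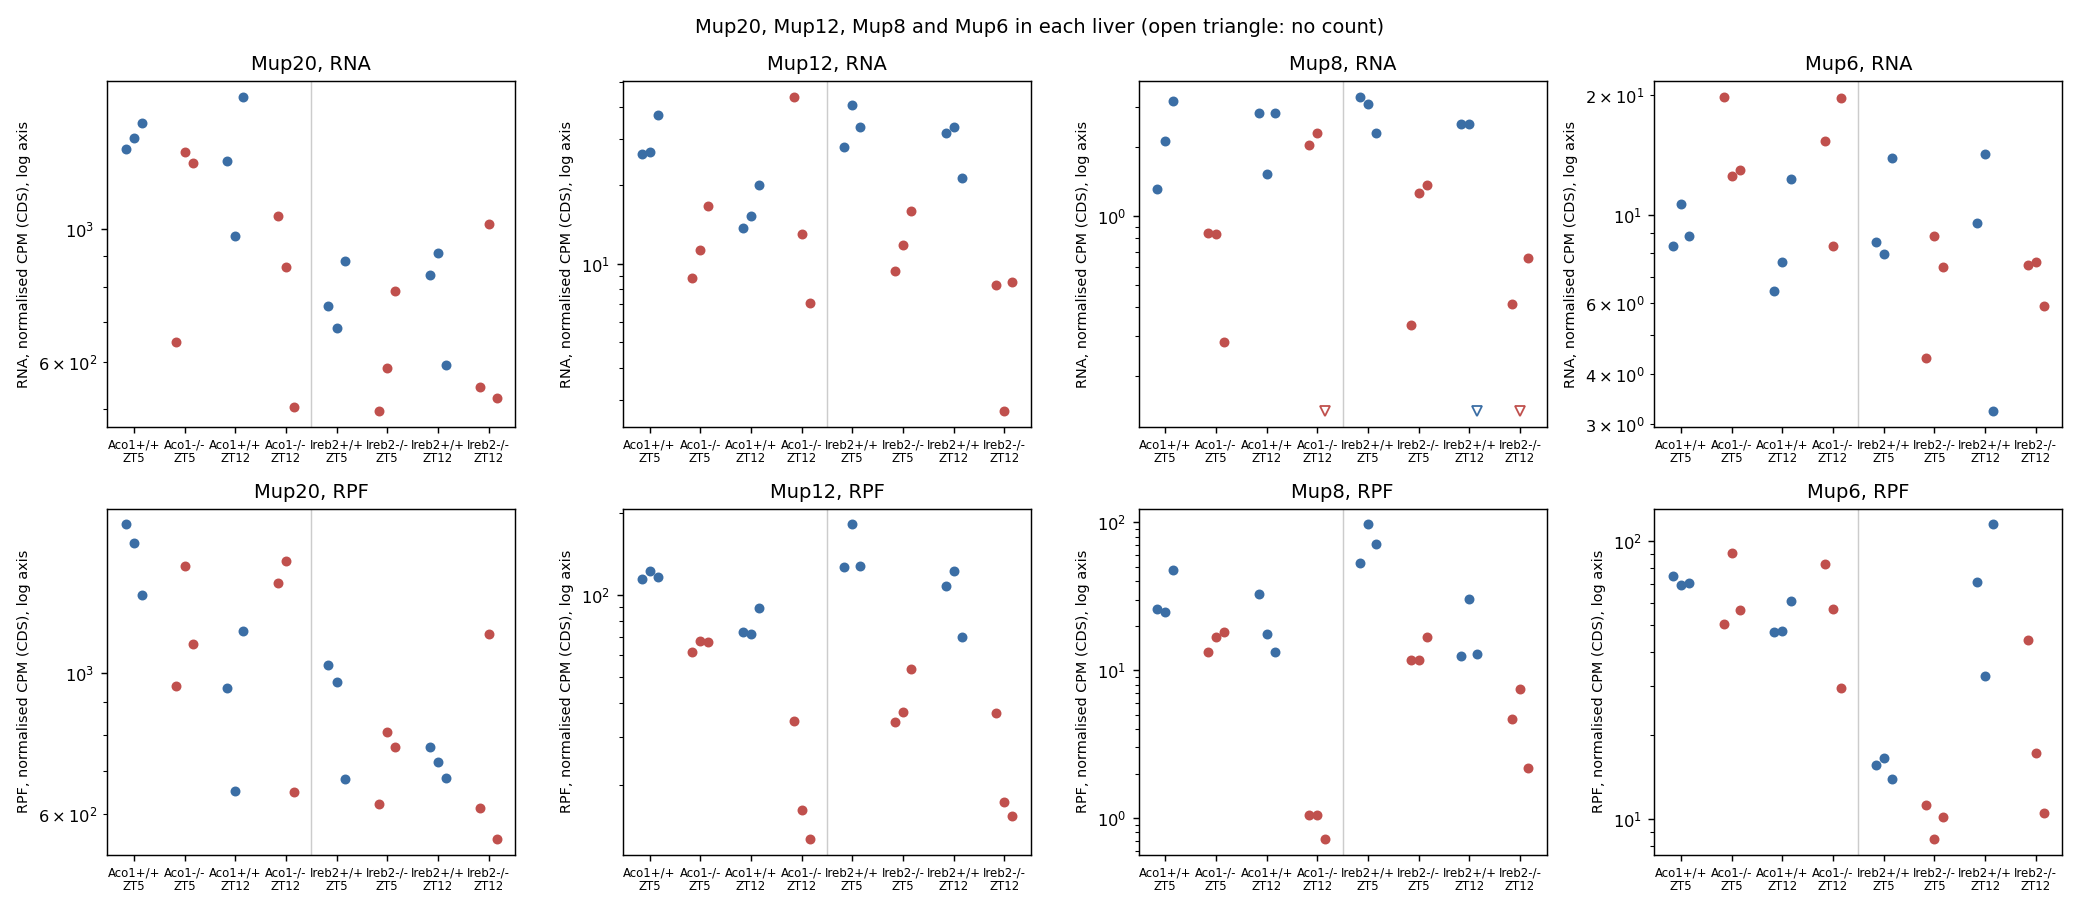
RNA (top) and RPF (bottom) CDS counts of Mup20, Mup12, Mup8 and Mup6 in each of the 24 livers, in normalised CPM on a log axis (blue +/+, red -/-, open triangles mark libraries with no count). Mup12 RPF is lower in the knockouts in all 4 comparisons, and Mup8 RPF lies at 0.723–1.04 CPM in Aco1-/- livers at ZT12.

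By group mean, Mup6 footprints were lowest in both genotypes of the Ireb2 line at ZT5. Their level was 75.1, 69.4 and 71.0 CPM in Aco1+/+ and 50.3, 90.3 and 56.7 in Aco1-/- livers at ZT5, and 46.9, 47.6 and 61.1 against 82.9, 56.9 and 29.6 at ZT12, with overlap at both times. In the Ireb2 line it was 15.6, 16.5 and 13.9 CPM in Ireb2+/+ and 11.2, 8.48 and 10.2 in Ireb2-/- livers at ZT5, separate from each other and below every liver of the Aco1 line. At ZT12 the Ireb2+/+ livers held 71.3, 32.8 and 115 CPM and the Ireb2-/- livers 43.9, 17.3 and 10.5.

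The Mup6 log2 difference between ZT12 and ZT5 in RPF was 2.26 ± 0.55 in Ireb2+/+ and 1.27 ± 0.62 in Ireb2-/- livers, and −0.47 ± 0.30 and −0.20 ± 0.30 in Aco1+/+ and Aco1-/-. The Ireb2-/- value was 0.48 without the first liver at ZT12, and the Aco1-/- value lay between −0.59 and 0.10 without 1 liver. Its RNA showed no such pattern, with 3.22–19.7 CPM over the 24 livers and all 7 neighbouring pairs of groups overlapping. In the Aco1 line at ZT5 Mup6 RNA was 8.35, 10.7 and 8.87 CPM in Aco1+/+ and 19.7, 12.5 and 12.98 in Aco1-/- livers, with the knockouts above (log2 0.64 ± 0.30, but 0.09 with the first sequencing run alone and 0.08 with all count columns). The RNA of the Ireb2+/+ livers was 8.56, 7.98 and 13.8 CPM at ZT5 and 9.54, 14.2 and 3.22 at ZT12. The liver with the highest RPF of all, 115 CPM, therefore had the lowest RNA, which rested on 5 counts.

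The copies whose RPF was most like that of Mup6 over the 24 livers were Mup4, Mup13 and Mup5, with Pearson r of 0.947, 0.944 and 0.925 on log2 CPM. These 3 copies had 555, 230 and 239 RNA CDS counts over the 24 libraries. Mup4 RPF was 113 ± 12.7 CPM in Aco1+/+ and 29.9 ± 3.92 in Ireb2+/+ livers at ZT5, and 63.7 ± 12.4 and 92.0 ± 37.0 at ZT12. Mup13 RPF was 73.5 ± 6.41 and 13.3 ± 1.18 CPM at ZT5 and 55.9 ± 10.1 and 89.2 ± 63.9 at ZT12. Mup6, Mup4 and Mup13 had in common the low level of the Ireb2 line at ZT5 and the spread between its ZT12 livers.

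**Figure D5:**
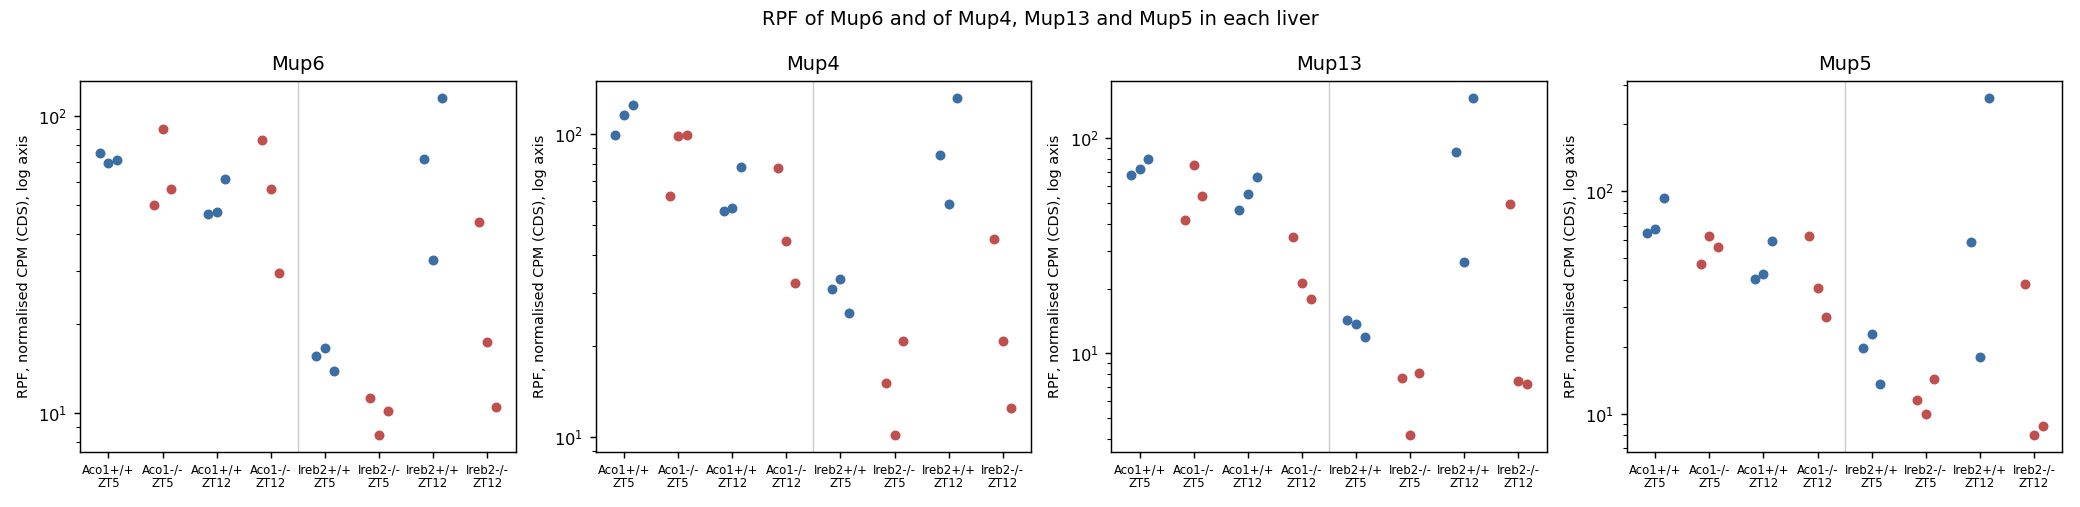
RPF of Mup6, Mup4, Mup13 and Mup5 in each of the 24 livers, in normalised CPM on a log axis (blue +/+, red -/-). Mup6 lies at 8.48–16.5 CPM in the 6 livers of the Ireb2 line taken at ZT5, and at 29.6–90.3 CPM in the Aco1 line.

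Between ZT5 and ZT12 the 12 copies outside the members shared a direction in RPF of Aco1+/+ livers. There 12 of 12 had a log2 difference below 0, with a median of −0.56 against −0.06 over all genes, and 6 were lower at ZT12 without overlap, against 15.3% of all genes. In RNA of these livers 10 of 12 lay below 0. edgeR called 0 of the 10 tested copies in either, with 2 at an unadjusted p under 0.05 in each, against 20.0% of all genes in RNA and 20.7% in RPF. DESeq2 called 0 in RNA and 1, Mup4, in RPF, where it called 7.7% of all genes. In RPF the fit to the 6 mice compared called 4 of the copies lower and the first sequencing run alone 1. Over all RPF comparisons these 2 settings called 3.82% and 2.94% of all genes. In RPF of Ireb2+/+ livers 7 lay above 0 and 5 below. Mup16 RPF fell from 254 ± 60.8 to 84.2 ± 25.9 CPM in Ireb2+/+ (log2 −1.60 ± 0.25, edgeR adjusted p = 0.00316) and from 131.5 ± 33.9 to 34.1 ± 1.84 in Ireb2-/- livers (log2 −1.95 ± 0.26, edgeR adjusted p = 0.0019), where 3.06% of all genes were called lower. Its TE was lower at ZT12 as well in Ireb2+/+ (log2 −1.32 ± 0.25, edgeR adjusted p = 0.0107, with overlapping livers), where 0.0374% of all genes were called lower. No copy had a lower TE call there with limma, with libraries not paired by mouse, in the 6 mice compared, or without the first or the second Ireb2+/+ liver at ZT12. In RPF of Ireb2+/+ edgeR called 2 of the 10 copies, Mup16 lower and Mup10 higher, where 3.9% of all genes were called lower and 3.63% higher. DESeq2 called 1 copy lower, Mup16, and 4 higher, Mup10, Mup13, Mup4 and Mup5, and 7.61% of all genes. With no filter and in the fit to the 6 mice compared 1 copy was called lower and 2 higher. Mup10 rose from 2.16 ± 0.354 to 5.20 ± 2.29 CPM (log2 1.31 ± 0.35, edgeR adjusted p = 0.0282), a call that was lost without the third Ireb2+/+ liver at ZT12, without any 1 Ireb2+/+ liver at ZT5, with the first sequencing run alone, with a minimum count of 30 and with the replicate number as a block. In Aco1-/- livers Mup13 RPF fell from 57.0 ± 16.8 to 24.6 ± 9.01 CPM (log2 −1.18 ± 0.24, edgeR adjusted p = 0.00519), where 6.78% of all genes were called lower. The copies called lower in RPF of Aco1-/- livers were 4 with all count columns and with 5′ UTR and CDS counts. They were 5 without the first Aco1-/- liver at ZT12, and 1 with TMM scaling and with DESeq2. Mup4 RNA fell from 13.999 ± 8.14 to 5.18 ± 1.69 CPM in the same livers (log2 −1.57 ± 0.41, edgeR adjusted p = 0.0235), where 2.73% of all genes were called lower, and this call was lost without the second or the third liver at ZT12, or the third at ZT5, and with the first sequencing run alone.

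RNA and RPF of a liver moved together for the abundant copies. For the sum of the copies other than the 4 members, Pearson r of log2 CPM was 0.872 and Spearman rho 0.835 over 24 livers, given as a description because the sum that the rule reads holds these counts. Within the lines r was 0.817 (Aco1) and 0.915 (Ireb2), and without the 2 livers farthest from the median RNA it was 0.825. In the same way r was 0.875 for the sum of all copies, 0.747 for Mup20, 0.756 for Mup12, 0.461 for Mup8 and 0.171 for Mup6. Within the Aco1 and the Ireb2 line r was 0.592 and 0.604 for Mup20, 0.493 and 0.936 for Mup12 and 0.363 and 0.658 for Mup8, while for Mup6 it was below 0 in both, −0.179 and −0.194. For Mup8 it was 0.265 without the 2 farthest livers, and for Mup20 0.895 with 5′ UTR counts added.

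Outside the family, the genes whose RNA was most like that of the Mup sum over the 24 livers were Cyp7b1 (r = 0.852), which hydroxylates oxysterols, the steroid dehydrogenase gene Hsd3b5 (0.839), Slc22a30 (0.824), the aldo-keto reductase gene Akr1c6 (0.797) and Slco1a1 (0.784), an uptake transporter for organic anions. Within the Aco1 line their r was 0.795, 0.811, 0.709, 0.762 and 0.659, and within the Ireb2 line 0.823, 0.849, 0.577, 0.534 and 0.724. For Mup20 they were the complement genes C6 (0.846) and C8b (0.844), Selenbp2 (0.782), Slc22a30 (0.766) and Hsd3b5 (0.756). All genes of a liver come from 1 library and share its depth, so these are descriptions.

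Genes of the pathway that drives Mup transcription were read from lists made with earlier results known. Of 22 genes of growth hormone signalling and sex-biased transcription, 21 were tested, and 0 passed in RNA, RPF or TE in any of the 4 comparisons of genotypes, by edgeR or, for RNA and RPF, by DESeq2. Between 0 and 5 of them had an unadjusted edgeR p under 0.05 in a comparison, the 5 in RPF of the Aco1 line at ZT12, where 12.7% of all genes did. It was 4 of 21 in RNA and in RPF of the Aco1 line at ZT5, against 3.73% and 2.79% of all genes, and 4 in RNA of the Ireb2 line at ZT12, against 4.21%. The growth hormone receptor gene Ghr had log2 RNA differences of −0.10 ± 0.15 and −0.06 ± 0.15 in the Aco1 line and 0.01 ± 0.12 and −0.06 ± 0.12 in the Ireb2 line, and its target Igf1 −0.04 ± 0.15, −0.14 ± 0.15, −0.21 ± 0.14 and −0.07 ± 0.14. Of 20 male-biased liver genes other than Mup, all tested, 1 passed, Ugt2b1, a glucuronosyltransferase gene lower in RPF of Ireb2-/- livers at ZT5 (log2 −0.66 ± 0.12), where 0.0374% of all genes were called lower. DESeq2, which called 0.206% of all genes there, also called Cyp7b1. Between 0 and 8 of the 20 had an unadjusted p under 0.05, the 8 in RNA of the Aco1 line at ZT5, where 3.73% of all genes did, followed by 7 in RPF of the same livers (2.79%) and 6 in RPF of the Ireb2 line at ZT5 (7.64%). Their median log2 RNA differences were −0.34 and −0.16 in the Aco1 line and −0.27 and −0.12 in the Ireb2 line, against 0.02, 0.002, 0.01 and 0.003 over all genes.

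The female-biased list was mostly too low to test in these male livers, with 6 of 20 genes tested and 0 called by edgeR or DESeq2 (0 to 2 at an unadjusted edgeR p under 0.05, the 2 in RNA and in RPF of the Aco1 line at ZT5, against 3.73% and 2.79% of all genes). Their median log2 RNA differences were 2.06 and 1.09 in the Aco1 line and 1.48 and 0.15 in the Ireb2 line, with standard errors as large as 3.57 for single genes. Of 18 genes for other lipocalins and abundant secreted proteins, 16 were tested and 0 passed in edgeR, with 0 to 4 at an unadjusted p under 0.05 (the 4 in RNA of the Ireb2 line at ZT12, against 4.21% of all genes). DESeq2 called 1, Serpina1a, in RPF of the Aco1 line at ZT12, where it called 1.14% of all genes. Alb, the albumin gene, had log2 RNA differences of 0.34 ± 0.12 and 0.33 ± 0.12 in the Ireb2 line at ZT5 and ZT12, and Serpina3k, a serine protease inhibitor gene, −0.41 ± 0.12 and −0.28 ± 0.12. The medians of that list were 0.09 and 0.15 in the same comparisons.

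Aco1 lies on the same chromosome as the Mup cluster, at chr4:40143265-40199009, 19.8 Mb before Mup6. Of the tested genes outside the family that start between Aco1 and 5 Mb past the cluster, edgeR called 0 in RNA or RPF of the Aco1 line at either time, and their median log2 differences lay between −0.01 and 0.04. At an unadjusted p under 0.05 these were 4 and 7 genes (3.2% and 5.6% of them) in RNA and 3 and 20 (2.4% and 16%) in RPF at ZT5 and ZT12, where the share over all genes would give 4.66 and 9.57 in RNA and 3.48 and 15.8 in RPF. DESeq2 called 1 of them, Anp32b, in RPF at ZT12, where it called 1.14% of all genes.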

How the data were processed

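Livers of 24 mice gave 1 total RNA and 1 RPF library each. The authors removed adapters with cutadapt 3.5, discarded rRNA and tRNA reads with Bowtie2, and mapped the rest with STAR 2.70f, as the submitters' processing notes name them. The deposited values are raw counts per gene, not normalised, in 77 files, 1 per sequencing run, and the runs of 29 libraries with 2 runs were summed. The counting tool, its strand setting, its treatment of reads that map to several copies and the meaning of the columns are not given in the sources used here. The columns were read as 5′ UTR, CDS, 3′ UTR, 1 that is 0 throughout and 1 not identified. For near-identical Mup copies the split of reads among genes is therefore uncertain.

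Genes were filtered with filterByExpr (minimum count 10, minimum total 15), which left 10696, and scaled by the upper quartile over 48 libraries. edgeR 4.0.16 quasi-likelihood tests in R 4.3.3 were fitted for each line over its 12 livers, with a term for the mouse in TE, and p-values were adjusted by Benjamini-Hochberg over all features with a threshold of 0.05. Mup rows other than the 4 members were summed to 1 feature in the fit as planned, and because the rule that chose the members reads the sum of all Mup rows, no p-value of either sum, or of Mup3 and Mup7, is given. Log values used a prior count of 0.5. CPM of different genes are not per length and were not compared as expression. The scripts were tested on simulated data. Positions and promoters are from RefSeq (GRCm38.p6). The promoter table held 1 of the 4 members. The members and lists were chosen with earlier results of these data known. Named genes are the 4 members, the 2 sums, Mup genes among the 5 highest in RNA or RPF, past the threshold or at the end of the family's range in a comparison, the genes most like the Mup sum or Mup20, and in each list the most abundant and the called ones. Ighm, Ptprc, Clec4f, Mup5 and the copies printed as sequences were named after their values were seen.

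Replicate numbers are shared by the groups in the labels. Same-numbered livers deviated together, every correlation over 0.1, in 1 of 16 comparisons (RPF, Ireb2 knockout against control at ZT12, 0.112–0.133). The labels do not say that replicates came from separate litters or days, so p-values measure the spread between these mice. Alternatives were TMM scaling, DESeq2 1.42.0, limma 3.58.1 on log2 RPF/RNA, no filter and a minimum count of 30, scaling without Mup rows, first runs alone, other count columns, the 6 mice compared alone, a replicate block, unpaired TE and leaving out each liver. Adding 5′ UTR to CDS counts was chosen after seeing the data.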

Additional observations from a re-analysis of the deposited data

Results flagged for a closer look

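The effect of Aco1 loss on Mup12 RPF/RNA differed between the times. The log2 difference of knockout against control was −2.05 ± 0.26 at ZT12 and 0.42 ± 0.24 at ZT5, and the interaction was −2.47 ± 0.36 (SE, edgeR quasi-likelihood fit with a term for each mouse). Mup12 was chosen with its values known, so the difference is a description. The RNA library of the first Aco1-/- liver at ZT12, with 852293 CDS counts the smallest of all, held the highest Mup12 RNA level (43.7 CPM), and RPF/RNA was lower than in all 3 controls in the other 2 Aco1-/- livers as well.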

How the results depend on the processing

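The lower RPF of the copies other than the members in Ireb2-/- livers at ZT12 was −0.72 in the fit to the 6 mice compared and −0.80 to −0.66 without 1 liver. At ZT5 the same RPF difference was −0.56 with TMM, −0.55 with DESeq2, −0.54 with no filter and −0.52 in the 6 mice. In RNA at ZT12 it was −0.71 with DESeq2, −0.70 with no filter and −0.87 to −0.53 without 1 liver. The TE difference between times in Aco1+/+ was −0.37 in the 6 mice.

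Small differences of these copies changed sign. Between times in Aco1-/- RNA it was 0.025 with both TMM and DESeq2. With all count columns the values were −0.22 (RNA, times, Aco1+/+), 0.21 and −0.090 (RNA and TE, genotype effect between times, Aco1), 0.15 (TE, Aco1, ZT5) and 0.11 (TE, Ireb2, ZT12). With 5′ UTR and CDS counts, an alternative chosen after seeing the data, they were −0.082 (RNA, times, Aco1+/+) and 0.23 (TE, times, Aco1-/-). Without 1 liver the differences between times were −0.30 to 0.24 (RNA), −0.28 to 0.045 (RPF) and −0.18 to 0.065 (TE) in Aco1-/-, and −0.12 to 0.23, −0.13 to 0.013 and −0.21 to 0.029 in Ireb2+/+. Those of TE between genotypes were −0.10 to 0.045 (Aco1, ZT5) and −0.17 to 0.069 (Ireb2, ZT12), those between lines −0.067 to 0.47 (RNA, ZT12) and −0.011 to 0.18 (RPF, ZT5), and the RNA genotype effect between times in the Aco1 line was −0.37 to 0.17.

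The sum of all copies moved with the columns counted. With all columns it was −0.31 (RNA, times, Aco1+/+), −0.47 (RPF, times, Aco1-/-), 0.22 and −0.029 (TE, genotypes, Aco1, ZT5 and ZT12), −0.020 and −0.27 (TE, times, Aco1+/+ and Aco1-/-), −0.059 and −0.26 (RNA and RPF, genotypes, Ireb2, ZT5), 0.35 (RNA, times, Ireb2+/+), and −0.36 and −0.056 (TE, times, Ireb2+/+ and Ireb2-/-). With 5′ UTR and CDS it was −0.26 and −0.65 (RNA, times, Aco1+/+ and Aco1-/-), −0.50 (RPF, times, Aco1-/-), −0.12 and 0.21 (TE, times, Aco1+/+ and Aco1-/-), −0.11 and −0.29 (RNA and RPF, genotypes, Ireb2, ZT5) and 0.091 (TE, times, Ireb2-/-). The Mup20 RPF/RNA difference in the Aco1 line at ZT12 was −0.42 with all columns. The cause was not tested.

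Calls of the 10 tested single copies numbered 1 in RNA, 6 in RPF and 1 in TE over 8 comparisons each, where 2.16%, 4.05% and 0.103% of all genes were called. In RNA this was 3 with 5′ UTR and CDS (2.26% of all genes), 7 with DESeq2 (1.93%), 3 with all columns (3.0%), 2 with the first run alone (1.59%) and 7 with the 6 mice (2.41%). In RPF it lay between 4 and 17 over the alternatives, with 17 with DESeq2 (4.44%) and 13 with the 6 mice (3.82%). In TE it was 4 with all columns (0.206%), 2 with the first run (0.084%), 0 with libraries not paired by mouse (0.028%), 0 with limma (0.00117%), 3 with no filter (0.122%), 4 with the 6 mice (0.222%) and 4 with the replicate block (0.117%). Without 1 liver it was 0 to 3 in RNA, 4 to 11 in RPF and 0 to 4 in TE. With the replicate block the RPF difference of the sum of all copies other than the 4 members, Mup3 and Mup7 included, was −0.72 in the Ireb2 line at ZT12. Few RNA counts limit Mup8, Mup6 and Mup12.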
